A study of Mus musculus with 15 samples.

Results

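Ccl2, Ccl7, Ccl8 and Ccl12 encode the monocyte-attracting CC chemokines of the mouse, and their 4 rows were taken by gene symbol from a table of 21110 genes. The genes were picked because their levels in these same libraries were already known to differ by cell type and papain state. Their values are therefore given as a description, with standard errors and no test, and tests are reported only for other genes.

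The table comes from RNA sequencing of basophils, eosinophils and natural helper cells (group 2 innate lymphoid cells) sorted from lungs of C57BL6/J mice. Papain, a plant protease used as an inhaled allergen, was given through the nose at 50 ug per mouse on 3 days in a row, and naive mice received none. The 15 libraries form 8 groups: papain basophils, naive basophils, papain CD11c- eosinophils, papain CD11c+ eosinophils, naive eosinophils, papain 3'UTRKO natural helper cells, papain natural helper cells and naive natural helper cells. The 3'UTRKO group is 1 library, the labels leave unnamed the gene that lost its 3' untranslated region, and each other group has 2 libraries. Basophils were gated on FceR1 and CD49b without c-kit. Natural helper cells were gated as lineage-negative cells with Thy1.2, the IL-7 receptor alpha chain and CD25. Eosinophils were gated on SiglecF with low Gr1 and no autofluorescence, and only those of papain mice were divided by CD11c. Values are FPKM (fragment counts scaled to transcript length and library size) as whole numbers, so read depth is unknown and precision comes only from the spread between libraries. FPKM totals were 374841 to 570208 per library, and 9995 to 13049 genes were above 0. The labels do not say whether replicates came from separate animals, so each p-value reflects no more than the spread between these libraries, which may be technical.

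The 4 proteins belong to the monocyte chemoattractant protein family. Such chemokines bind heparan sulphate on tissue surfaces and signal through G protein-coupled receptors of leukocytes. Ccr2 is the receptor that draws inflammatory monocytes out of bone marrow and into tissue, and Ccl2 and Ccl7 are its main mouse ligands. Stromal cells, epithelium, endothelium and macrophages transcribe these genes after inflammatory cytokines, largely through NF-kB. In allergic airways the family also recruits cells that carry Ccr1, Ccr3 or, for mouse Ccl8, Ccr8.

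All members lie in a cluster on chromosome 11, in the order Ccl2, Ccl7, Ccl11, Ccl12, Ccl8 and Ccl1 among RefSeq protein-coding genes. Their defining feature is a pair of adjacent cysteines near the start of the mature protein. The reading frame around that pair is shown for each member because it shows both the family signature and how far the genes differ at base level. Each window holds 30 bases of coding sequence from the GENCODE transcript on the plus strand, and the capitals mark the 2 cysteine codons.
Ccl2: gccccactcaccTGCTGCtactcattcacc
Ccl7: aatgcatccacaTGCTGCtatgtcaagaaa
Ccl8: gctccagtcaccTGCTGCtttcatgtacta
Ccl12: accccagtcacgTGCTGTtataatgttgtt
The first cysteine of the pair is residue 34 in Ccl2, 33 in Ccl7, 32 in Ccl8 and 33 in Ccl12, counted from the start methionine. Ccl2 is the longest protein, with 148 residues, against 97 in Ccl7, 97 in Ccl8 and 104 in Ccl12. Over aligned coding bases the pairs of members were 64.6% (Ccl7 and Ccl8) to 70.8% (Ccl8 and Ccl12) identical. The longest exact stretch that any pair of their transcripts shares is 23 bases, in Ccl2 and Ccl7. How the authors' counting treated reads that match more than 1 gene is not given in the sources used here.

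RefSeq promoter sequence on build GRCm38.p6 was at hand for Ccl12 and Ccl8, 2 of the 4 members, each spanning 250 bases before to 50 bases after the transcription start. The stretch around the TATA box is shown because both genes carry that element at nearly the same place. Capitals mark TATAAAA, and both genes are on the plus strand of chromosome 11.
Ccl12: tctttgtgtctTATAAAAgtcagatggaac
Ccl8: tccctgctcccTATAAAAggcagattagag
The element begins 31 bases before the start of Ccl12 and 32 bases before that of Ccl8. TATAAAA occurs on either strand in 5.48% of the 32851 RefSeq mouse promoters of 300 bases. Motifs of 3 inducible factors were also searched on both strands: GGGA and CC with 4 free bases between them (NF-kB), TGANTCA (AP-1), and TTC and GAA with 4 free bases between them (STAT6). These letters occur in 20.7%, 7.81% and 6.95% of those promoters and in neither of the 2 windows, which says nothing about sites elsewhere. The 2 promoters were 63.4% identical over 279 aligned bases.

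Ccl2 and Ccl7 were abundant in papain basophils, both papain eosinophil gates and papain natural helper cells, and lower in the 3'UTRKO library. Ccl8 was lower than both, and Ccl12 was close to 0 throughout. In papain mice the FPKM of the 4 genes summed to 1255 and 648 in basophils, 431 and 369 in CD11c- eosinophils, 1085 and 1186 in CD11c+ eosinophils, 87 in the 3'UTRKO library and 383 and 447 in natural helper cells. In naive mice the sums were 105 and 29 in basophils, 4 and 10 in eosinophils, and 180 and 200 in natural helper cells. Natural helper cells were thus the only naive cell type with sums above 105. The CD11c+ gate and papain basophil library 1 had the highest sums after papain.

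**Figure D1:**
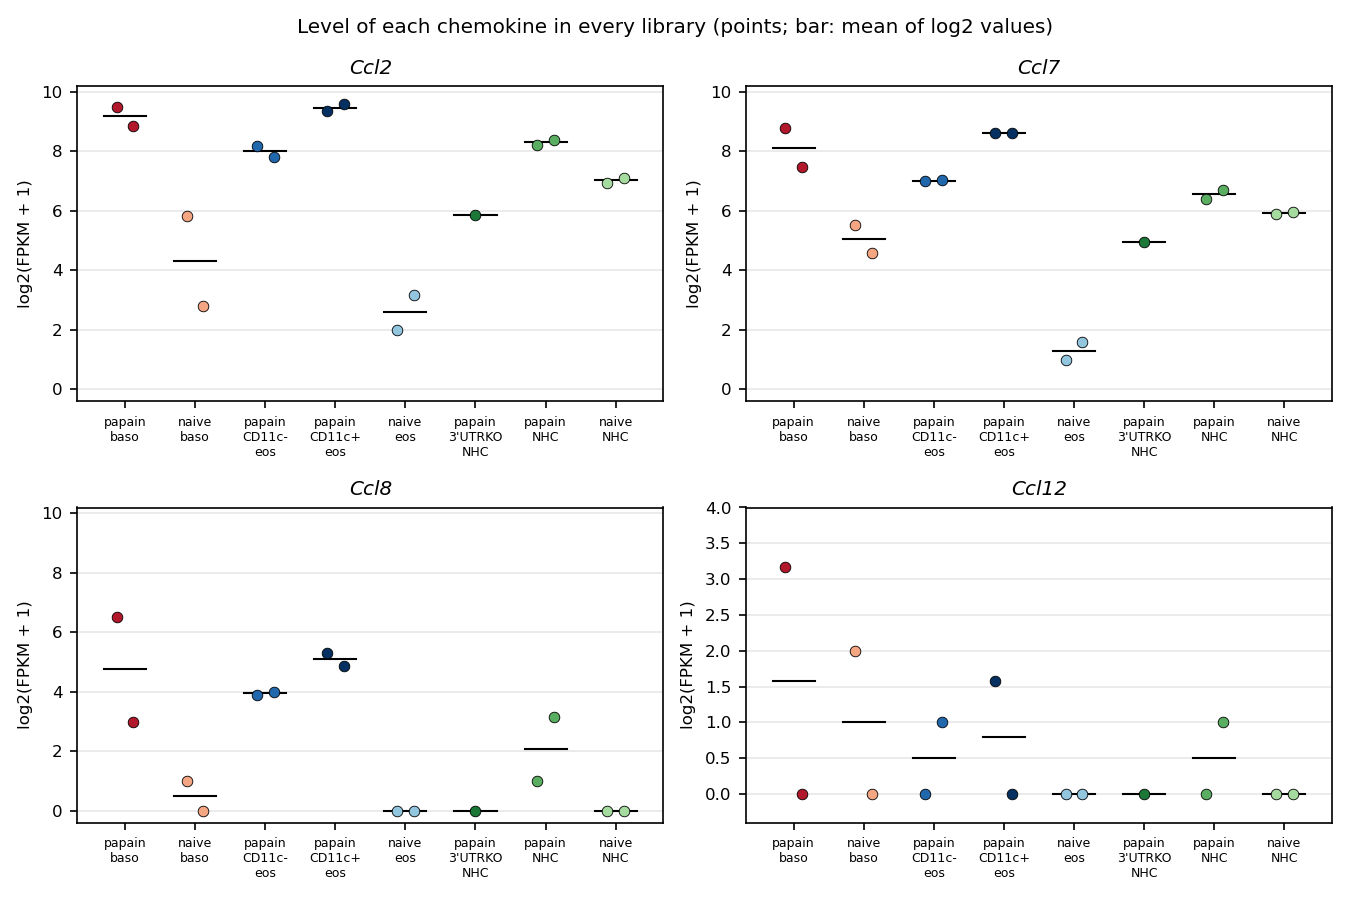
FPKM of each of the 4 chemokines in every library, on a log2(FPKM + 1) axis (Ccl12 on a shorter axis); points are libraries and bars are means of the log2 values, with 2 libraries per group and 1 for 3'UTRKO. Ccl2 and Ccl7 sit low in naive eosinophils and high in both papain eosinophil gates, while Ccl12 does not pass 8 FPKM in any library.

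Ccl2, the classical ligand of Ccr2, had 716 and 465 FPKM in papain basophils, against 56 and 6 FPKM in naive basophils. It had 291 and 224 FPKM in papain CD11c- eosinophils and 654 and 766 FPKM in papain CD11c+ eosinophils, against 3 and 8 FPKM in naive eosinophils. In natural helper cells it had 57 FPKM in the 3'UTRKO library, 299 and 334 FPKM in papain cells and 122 and 138 FPKM in naive cells. Every papain library of an unmodified group was above every naive library of all 3 cell types. Ranked within its own library, Ccl2 was gene 99 and gene 91 from the top in CD11c+ eosinophils, 101 and 175 in papain basophils, and 6178 and 4493 in naive eosinophils.

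On the log2(FPKM + 1) scale, Ccl2 differed by 4.85 ± 0.80 (limma standard error) between papain and naive basophils. The difference from naive eosinophils was 5.42 ± 0.80 in the CD11c- gate and 6.88 ± 0.80 in the CD11c+ gate. In natural helper cells it was 1.28 ± 0.80. This standard error is set by the spread of all groups, here and in later comparisons. The SD of log2 values of Ccl2 within the compared groups was 1.54 in basophils and 0.12 in natural helper cells. It was 0.61 in the CD11c- and 0.60 in the CD11c+ comparison. The error thus understates the spread in basophils and overstates that in natural helper cells. The basophil and eosinophil differences start from single-digit or uneven naive values, whereas naive natural helper cells already had 122 FPKM or more. Mean FPKM of papain cells over that of naive cells was 19.0 in basophils, 46.8 and 129 in CD11c- and CD11c+ eosinophils, and 2.43 in natural helper cells.

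Ccl7, a ligand of Ccr1, Ccr2 and Ccr3, had 440 and 176 FPKM in papain basophils, against 45 and 23 FPKM in naive basophils. It had 126 and 129 FPKM in papain CD11c- eosinophils and 390 and 392 FPKM in papain CD11c+ eosinophils, against 1 and 2 FPKM in naive eosinophils. Natural helper cells had 30 FPKM in the 3'UTRKO library, 83 and 104 FPKM after papain and 58 and 62 FPKM when naive. The eosinophil gates were tight between replicates, whereas the papain basophil libraries lay far apart. The log2 difference between papain and naive cells was 3.07 ± 0.43 in basophils, 5.71 ± 0.43 in CD11c- eosinophils, 7.32 ± 0.43 in CD11c+ eosinophils and 0.62 ± 0.43 in natural helper cells. The SD of log2 values of Ccl7 within the compared groups was 0.81, 0.29, 0.29 and 0.17 in these comparisons.

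Ccl8, which in the mouse activates Ccr8, had 91 and 7 FPKM in papain basophils, against 1 and 0 FPKM in naive basophils. It had 14 and 15 FPKM in papain CD11c- eosinophils and 39 and 28 FPKM in papain CD11c+ eosinophils, and was listed at 0 in both naive eosinophil libraries. It was listed at 0 in the 3'UTRKO library, had 1 and 8 FPKM in papain natural helper cells and was listed at 0 in both naive ones. Ccl8 was above 0 in 9 of the 15 libraries, 8 of them from papain mice. The papain basophil libraries span both eosinophil gates, so these groups have no order for Ccl8. The log2 difference between papain and naive basophils was 4.26 ± 1.03, where the SD of log2 values within these groups was 1.83. No fold is given against a group listed at 0.

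Ccl12, a mouse ligand of Ccr2, had 8 and 0 FPKM in papain basophils, against 3 and 0 FPKM in naive basophils. It had 0 and 1 FPKM in papain CD11c- eosinophils, 2 and 0 FPKM in CD11c+ eosinophils and 0 and 1 FPKM in papain natural helper cells. It was listed at 0 in the 3'UTRKO library and in all naive eosinophil and natural helper cell libraries. Only 5 libraries were above 0, and no pair of groups was free of overlap.

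All 4 members passed the filter on low values (at least 2 libraries with 1 FPKM or more), as did 14257 genes in all. In each papain comparison, Ccl2, Ccl7 and Ccl8 were higher in both papain libraries than in both naive libraries, that is 3 of 4 members, and Ccl12 overlapped. In natural helper cells Ccl8 counts only through 1 and 8 FPKM against 0, near the floor of whole-number values. Among all genes tested, limma called 22.1% higher in basophils at an adjusted p under 0.05 (26% in either direction). It called 1.87% higher in CD11c- eosinophils (2.24% in either direction), 9.93% in CD11c+ eosinophils (12.1%) and 0.54% in natural helper cells (0.786%). Because the genes were picked from these contrasts, nothing is read from their count against those shares. The shares are of limma calls, and the share of all genes without overlap is not given here. The median log2 difference of the 4 members was 3.67 in basophils, 4.69 and 5.99 in CD11c- and CD11c+ eosinophils and 0.95 in natural helper cells. The median of all genes tested was 0.50, 0.21, 0.34 and 0.09 in those comparisons. The 2 eosinophil comparisons share their naive libraries.

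**Figure D2:**
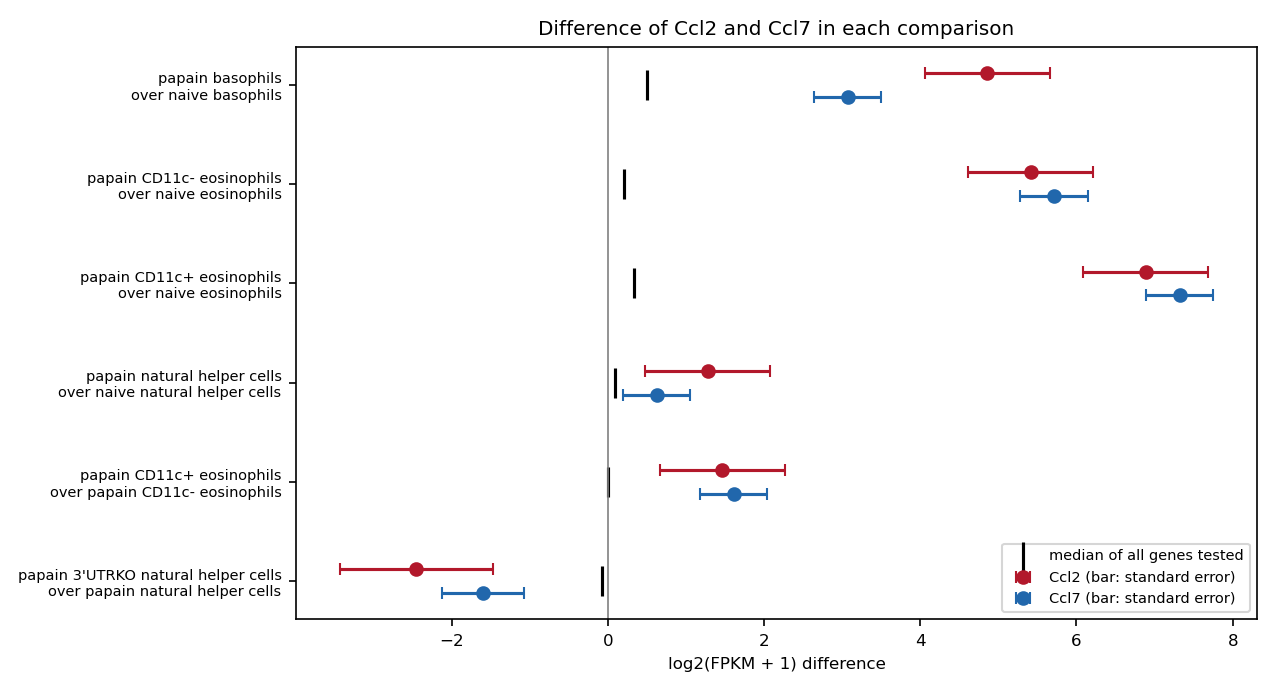
Log2(FPKM + 1) difference of Ccl2 and Ccl7 (horizontal axis) in 6 comparisons. Bars are the limma standard error, set by the spread of all groups, and the black tick is the median of all genes tested. Both genes lie right of 0 for papain over naive cells and for the CD11c+ over the CD11c- gate, and left of 0 for 3'UTRKO over papain natural helper cells, at -2.45 and -1.60.

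Among papain eosinophils, the CD11c+ gate had more of 3 of the 4 members than the CD11c- gate, with no overlap of libraries. Mean FPKM in the CD11c+ gate over that in the CD11c- gate was 2.76 for Ccl2, 3.07 for Ccl7 and 2.31 for Ccl8. The log2 differences were 1.47 ± 0.80 for Ccl2, 1.61 ± 0.43 for Ccl7 and 1.14 ± 1.03 for Ccl8. The standard error of Ccl2 is set largely by other groups: within the gates its replicates differed by 0.22 (SD of log2 values). Of all genes tested, limma called 0.0281% higher in the CD11c+ gate and 0.0561% in either direction. A limma call is another measure than absence of overlap, so these shares give no background for the count of members.

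The 3'UTRKO library of natural helper cells had less of Ccl2, Ccl7 and Ccl8, again 3 of 4 members outside the range of the papain libraries. For Ccl8 this is 0 against 1 and 8 FPKM, near the floor of whole-number values. Ccl2 differed by -2.45 ± 0.98 and Ccl7 by -1.60 ± 0.53 on the log2 scale, and limma called 0.358% of all genes tested lower and 0.568% in either direction. Ccl2 (57 FPKM) and Ccl7 (30 FPKM) were also under both naive natural helper cell libraries. The shares called are another measure than lying outside a range, so they give no background for the count of members. With 1 library in the group, the standard error assumes that it would vary like the other groups. The library and the genotype cannot be told apart.

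Between naive cell types, Ccl7 set basophils apart from eosinophils (45 and 23, against 1 and 2 FPKM; log2 difference 3.76 ± 0.43), while Ccl2 overlapped (56 and 6, against 3 and 8 FPKM). That is 1 of 4 members without overlap. Limma called 5.3% of all genes tested higher and 14% in either direction. Against naive natural helper cells, naive basophils had less Ccl2 (log2 difference -2.71 ± 0.80) and less Ccl7 (-0.88 ± 0.43), where 13.6% of genes were called lower and 20.6% in either direction. Naive eosinophils had less Ccl2 (-4.45 ± 0.80) and less Ccl7 (-4.64 ± 0.43) than naive natural helper cells, where 16.5% were called lower and 28.1% in either direction. In both of these comparisons 2 of 4 members were free of overlap, and Ccl8 and Ccl12 were at 0 or close to it on both sides. The shares called between naive cell types are another measure than absence of overlap, so they give no background for these counts.

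Set side by side, the papain response of Ccl2 in basophils exceeded that in natural helper cells by 3.58 ± 1.13 on the log2 scale and was -2.03 ± 1.13 relative to that of CD11c+ eosinophils. For Ccl7 these differences of responses were 2.45 ± 0.61 and -4.25 ± 0.61. Over all genes tested, 6.75% of responses differed between basophils and natural helper cells and 2.52% between basophils and CD11c+ eosinophils.

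By mean level, Ccl2 ran in the order CD11c+ eosinophils, papain basophils, papain natural helper cells, CD11c- eosinophils, naive natural helper cells, 3'UTRKO natural helper cells, naive basophils and naive eosinophils. CD11c+ eosinophils and papain basophils overlapped, as did naive basophils and naive eosinophils; other neighbours did not. Ccl7 had the same leading groups, also overlapping, and then CD11c- eosinophils, papain natural helper cells, naive natural helper cells, naive basophils, the 3'UTRKO library and naive eosinophils. There the 3'UTRKO value lay within the naive basophil range. Papain natural helper cells ranked above CD11c- eosinophils for Ccl2 and under them for Ccl7, with no overlap in either gene.

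The ratio of Ccl2 to Ccl7 lay between 0.261 and 4 over the libraries. FPKM is scaled to transcript length, so the ratio compares levels per length. Ccl2 was 1.63 and 2.64 times Ccl7 in papain basophils, against 1.24 and 0.261 in naive basophils. The ratio was 2.31 and 1.74 in CD11c- eosinophils and 1.68 and 1.95 in CD11c+ eosinophils, against 3 and 4 in naive eosinophils, where both genes are at single digits. It was 1.90 in the 3'UTRKO library, 3.60 and 3.21 in papain natural helper cells and 2.10 and 2.23 in naive natural helper cells. Papain natural helper cells thus lay above naive ones without overlap, and naive basophil library 2 was the only library with more Ccl7 than Ccl2.

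Across the 15 libraries, log2(FPKM + 1) of Ccl2 and Ccl7 had a Pearson r of 0.94 and a Spearman rho of 0.96. Ccl8 had an r of 0.77 with Ccl2 and 0.79 with Ccl7 (rho 0.85 and 0.91). Ccl12 had an r of 0.36 with Ccl2, 0.43 with Ccl7 and 0.60 with Ccl8 (rho 0.33, 0.44 and 0.63). These libraries fall into groups that share cell type and treatment, so the values describe this set of libraries only.

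The neighbours within the cluster did not all follow the members. Ccl11 lay higher in every papain library than in the naive libraries of the same cell type. Ccl1 was lower after papain in natural helper cells. In basophils Ccl11 had 107 and 3 FPKM after papain and was listed at 0 when naive. It had 25 and 33 FPKM in CD11c- eosinophils and 31 FPKM in the 3'UTRKO library. Papain natural helper cells had 65 and 57 FPKM of Ccl11, and naive ones 26 and 15 FPKM. Ccl11 (eotaxin, a Ccr3 ligand), which lies between Ccl7 and Ccl12, had 77 and 79 FPKM in CD11c+ eosinophils and was listed at 0 in naive eosinophils; its difference was called by limma (adjusted p = 0.0114), but not without naive eosinophil replicate 1, naive eosinophil replicate 2 or CD11c+ replicate 2 (highest adjusted p = 0.0764). Ccl1, a Ccr8 ligand at the far end of the run of 6 genes, had 613 FPKM in the 3'UTRKO library, 457 and 625 FPKM in papain natural helper cells and 1100 and 1408 FPKM in naive ones, and at most 6 FPKM in the other libraries.

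**Figure D3:**
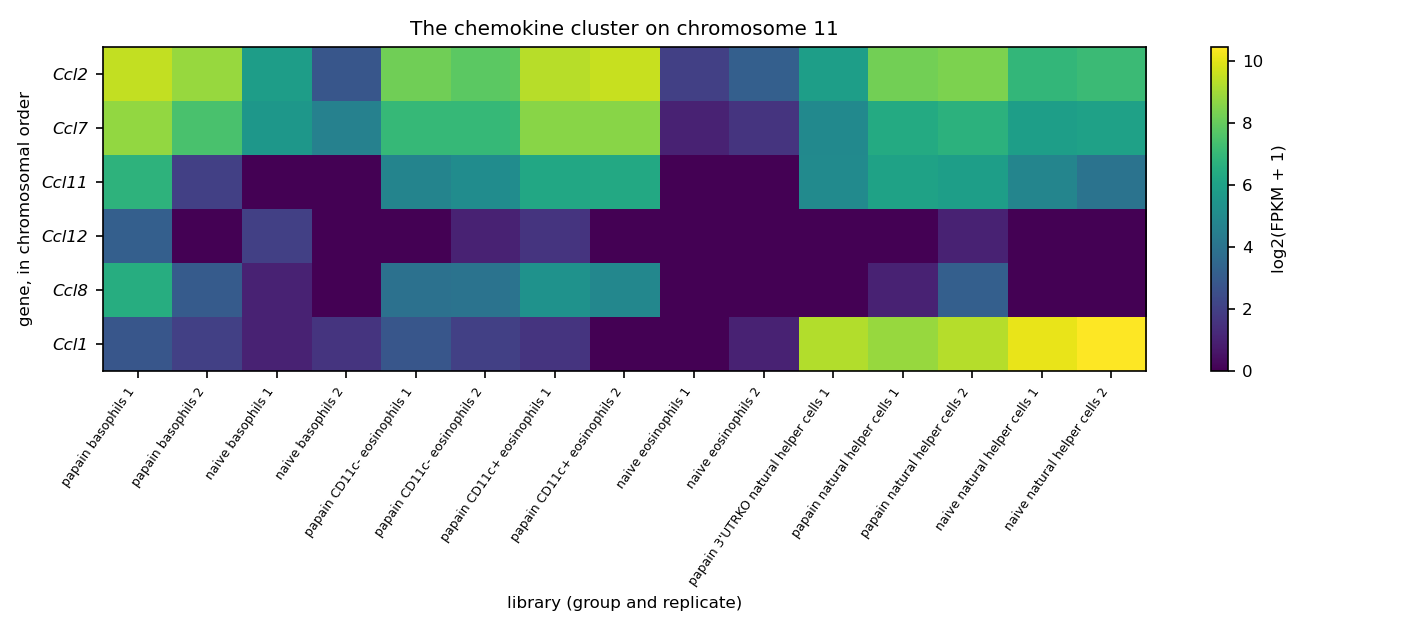
Level of the 6 chemokine genes of the chromosome 11 cluster, in chromosomal order from top to bottom, in each of the 15 libraries; colour gives log2(FPKM + 1). Ccl2 and Ccl7 are dark in naive eosinophils and bright in the papain groups, less so in the 3'UTRKO library, Ccl1 is bright only in natural helper cells (457 to 1408 FPKM), and Ccl12 is dark almost everywhere.

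The receptors were spread over the cell types in another way. Ccr2 had 41 and 3 FPKM in papain basophils, against 16 and 11 FPKM in naive basophils, and at most 6 FPKM in any eosinophil library. In natural helper cells it had 108 FPKM in the 3'UTRKO library, 94 and 93 FPKM after papain and 142 and 137 FPKM when naive. Ccr2 was lower in naive basophils than in naive natural helper cells (log2 difference -3.30 ± 0.84, limma adjusted p = 0.0258), a call lost without any 1 of the 4 libraries (highest adjusted p = 0.130). Of its difference in papain over naive basophils (-0.14 ± 0.84, adjusted p = 0.980) no direction can be given: without papain basophil replicate 2 it was 1.56 (limma adjusted p = 0.0168).

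Ccr1 had 58 and 21 FPKM in papain basophils, against 71 and 61 FPKM in naive basophils. It had 76 and 83 FPKM in CD11c- eosinophils and 127 and 145 FPKM in CD11c+ eosinophils, against 59 and 69 FPKM in naive eosinophils, and at most 3 FPKM in natural helper cells. The CD11c+ values lie above the naive ones without overlap, but the difference of 1.08 ± 0.54 did not pass the test (limma adjusted p = 0.230). Ccr3, the eotaxin receptor, marked eosinophils, with 154 and 148 FPKM in the CD11c- gate and 124 and 151 FPKM in the CD11c+ gate, against 192 and 229 FPKM in naive cells. It had 4 and 1 FPKM in papain basophils, against 9 and 6 FPKM in naive basophils, a fall of low values that just passed the test (log2 difference -1.40 ± 0.44, adjusted p = 0.0468).

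Ccr8, the receptor of mouse Ccl8, was a natural helper cell transcript. It had 399 FPKM in the 3'UTRKO library, 341 and 334 FPKM in papain cells and 291 and 309 FPKM in naive cells, against at most 23 FPKM elsewhere. Ccrl2, a non-signalling receptor that presents chemerin, had 18 to 106 FPKM. The atypical receptors that take up chemokines were low: Ccbp2 did not pass 9 FPKM and Darc did not pass 5 FPKM.

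Counted over the list of 8 receptors, limma called Ccbp2 higher and Ccr3 lower in papain over naive basophils, that is 1 in each direction. Over all genes tested it called 26% in either direction there. It called 0 of 8 in CD11c- eosinophils, CD11c+ eosinophils and natural helper cells. Ccbp2 had 1 and 9 FPKM in papain basophils and was listed at 0 in naive basophils (adjusted p = 0.0372). Both basophil calls were lost with a replicate block (Ccbp2 adjusted p = 0.0508, Ccr3 adjusted p = 0.0657), and without either naive basophil replicate or papain basophil replicate 2.

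**Figure D4:**
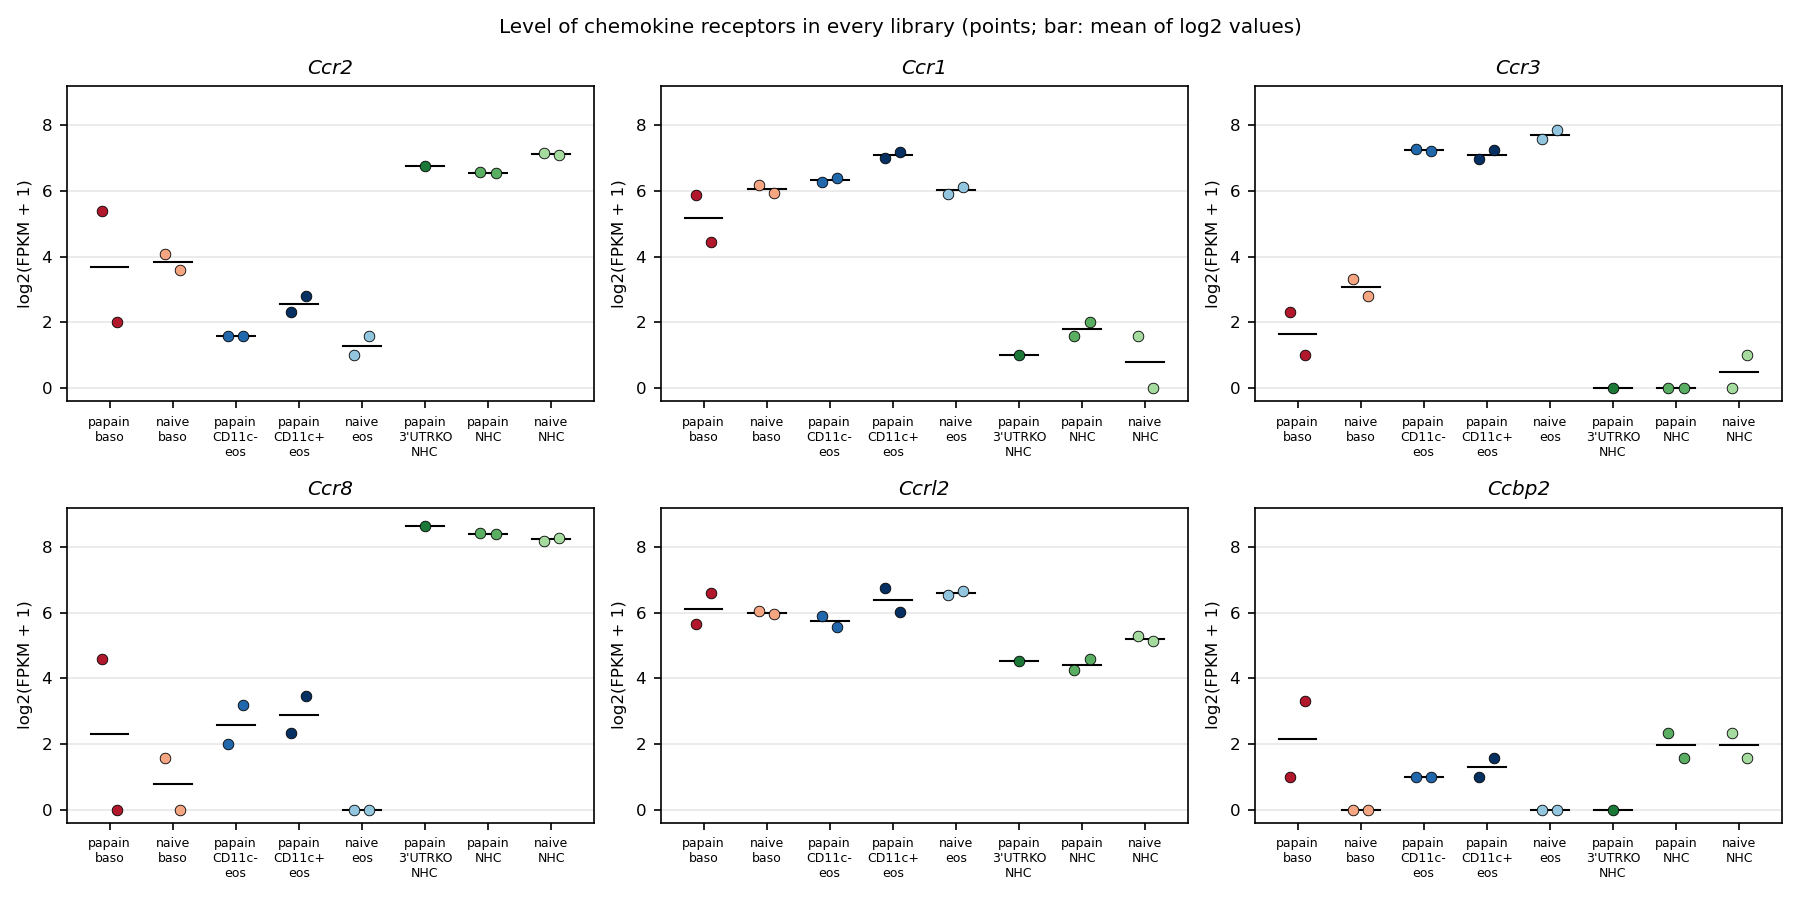
FPKM of 6 receptors of the chemokines in every library, on a log2(FPKM + 1) axis; points are libraries and bars are means of the log2 values. Ccr2 and Ccr8 are highest in natural helper cells, Ccr3 in eosinophils (124 to 229 FPKM) and Ccr1 in basophils and eosinophils.

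Other genes of the pathway were taken from 6 lists of 88 genes in all, of which 86 were tested. In papain over naive basophils 34 of the 86 were called (39.5%, against 26% of all genes tested), 22 higher and 12 lower. In CD11c- eosinophils 8 were called (6 higher, 2 lower), in CD11c+ eosinophils 19 (15 higher, 4 lower) and in natural helper cells 1. Those are 9.3%, 22.1% and 1.16% of the 86, against 2.24%, 12.1% and 0.786% of all genes tested. The same shares of all genes stand beside the counts of each list below. The lists were chosen with earlier results known, so nothing is read from their counts against these shares. Fitted on the 4 basophil libraries alone, the basophil count was 0, and without naive basophil replicate 2 it was 15. Without naive eosinophil replicate 1 the counts were 1 in CD11c- and 7 in CD11c+ eosinophils. Between the CD11c gates and in the 3'UTRKO comparison limma called 0 of 86, with 11 and 3 genes at an unadjusted p under 0.05.

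Among 26 other chemokine genes tested, limma called 10 higher in papain basophils, 3 in CD11c- eosinophils, 7 in CD11c+ eosinophils and 0 in natural helper cells. None was called lower, although some were lower without overlap. In papain basophils these included Ccl9 (333 to 657, against 1235 to 1255 FPKM in naive ones), Ccl3 (1116 to 4643, against 4805 to 5266 FPKM) and Ccl4 (674 to 3074, against 3208 FPKM). The median log2 difference of the list was 2.14 in basophils, 0.39 in CD11c- eosinophils, 1.01 in CD11c+ eosinophils and 0.63 in natural helper cells. Cxcl1, a neutrophil attractant, had 960 and 986 FPKM in papain basophils, against 28 and 5 FPKM in naive basophils (log2 difference 6.21 ± 0.62, limma adjusted p = 4.5e-04). It also rose in CD11c- eosinophils (345 and 309, against 16 and 7 FPKM, adjusted p = 0.00654) and in CD11c+ eosinophils (709 and 643, against the same 16 and 7 FPKM, adjusted p = 0.00118). The CD11c- call was lost without naive eosinophil replicate 2 or CD11c- replicate 1. Cxcl12, a stromal chemokine, had 39 and 13 FPKM in papain basophils and was listed at 0 in naive ones.

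Genes of the NF-kB pathway did not move one way. Of 20 tested, limma called 3 higher and 6 lower in papain basophils, and 0 higher and 1 lower in CD11c- eosinophils. It called 1 higher and 3 lower in CD11c+ eosinophils, and 0 in natural helper cells. The targets Vcam1 (149 and 409, against 4 and 0 FPKM) and Icam1 (199 and 681, against 70 and 61 FPKM), both leukocyte adhesion molecules, rose in papain basophils. The subunit gene Rel (36 and 22, against 95 and 86 FPKM) and the inhibitor Tnfaip3 (252 and 502, against 869 and 940 FPKM) fell there. The limma adjusted p of these 4 genes was 0.00188, 0.0165, 0.00440 and 0.0161. Without naive basophil replicate 2 the calls of Icam1 and Tnfaip3 were lost, and that of Icam1 also without papain basophil replicate 2. In CD11c+ eosinophils Nfkbie, an inhibitor of NF-kB, had 28 and 21 FPKM, against 83 and 57 FPKM in naive eosinophils (adjusted p = 0.00975; not called without naive eosinophil replicate 1 or CD11c+ replicate 2).

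Of 12 cytokines that induce these chemokines, limma called 3 higher and 3 lower in papain basophils. Tnf had 71 and 101 FPKM, against 37 and 18 FPKM in naive basophils (limma adjusted p = 0.0248; not called without naive or papain basophil replicate 2). Il6 had 1066 and 828 FPKM, against 2713 and 3535 FPKM in naive basophils (adjusted p = 0.00550). In CD11c+ eosinophils Il6 rose, with 441 and 440 FPKM, against 91 and 75 FPKM in naive eosinophils (adjusted p = 0.00233). Il33, an alarmin of epithelium and stroma, had 20 and 32 FPKM in papain basophils, against 1 and 0 FPKM in naive basophils (adjusted p = 6.9e-04), and also rose in both eosinophil gates, where 1 (CD11c-) and 2 (CD11c+) of the 12 cytokines were called. In the CD11c- gate the call of Il33 was lost without either naive eosinophil replicate or CD11c- replicate 1.

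Of 11 receptor genes of the inducing cytokines, limma called 5 higher and 1 lower in papain basophils. It called 2 higher in CD11c- eosinophils, 4 in CD11c+ eosinophils and 1 in natural helper cells. Osmr, the oncostatin M receptor of stromal cells, had 18 and 38 FPKM in papain basophils, against 1 and 0 FPKM in naive basophils (limma adjusted p = 8.1e-04). Il1r1, an interleukin-1 receptor, had 14 and 21 FPKM in CD11c+ eosinophils and was listed at 0 in naive eosinophils (adjusted p = 5.8e-04). Il13ra1, a subunit of the IL-13 receptor, had 2 and 2 FPKM in papain natural helper cells, was listed at 0 in naive ones, and was the only one of the 86 genes called there (adjusted p = 0.0419), a call lost without any 1 of the 4 libraries.

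Zc3h12a encodes an RNase that degrades mRNAs of inflammatory genes. It had 60 and 85 FPKM in papain basophils, against 120 and 127 FPKM in naive basophils (limma adjusted p = 0.0238). It had 66 and 49 FPKM in CD11c- eosinophils and 64 and 62 FPKM in CD11c+ eosinophils, against 130 and 136 FPKM in naive eosinophils (adjusted p = 0.0200 and 0.0133). It was the only one of the 9 mRNA decay regulators that limma called lower in each of these 3 comparisons. Zfp36l1 rose in CD11c+ eosinophils (66 and 87, against 6 and 21 FPKM, limma adjusted p = 0.0133). The call of Zc3h12a was lost without either naive replicate in all 3 comparisons, and without papain basophil replicate 1, CD11c- replicate 2 or CD11c+ replicate 2 in their own. That of Zfp36l1 was lost without naive eosinophil replicate 1 or CD11c+ replicate 2.

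Fibroblast markers, of cells outside the gates, rose with the chemokines after papain in basophils and eosinophils. The 7 fibroblast markers (Col1a1, Col1a2, Col3a1, Dcn, Lum, Pdgfra and Pdgfrb) summed to 707 and 214 FPKM in papain basophils, against 11 and 3 FPKM in naive basophils. They summed to 352 and 222 FPKM in CD11c- eosinophils and 533 and 484 FPKM in CD11c+ eosinophils, against 2 and 5 FPKM in naive eosinophils. Lum and Pdgfra were listed at 0 in all naive basophil and eosinophil libraries, and Col3a1 in the naive eosinophil ones. Limma called 6 of the 7 higher in papain basophils, 5 in CD11c- eosinophils and 6 in CD11c+ eosinophils. Their part in the chemokine levels was not tested. In bulk libraries a changed number of cells of a type and changed RNA per cell cannot be told apart. Nor can transcripts of cells outside the gates and those of the gated cells.

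In natural helper cells the fibroblast markers summed to 148 FPKM in the 3'UTRKO library, 320 and 320 FPKM after papain and 317 and 202 FPKM when naive. Limma called 0 of the 7 between papain and naive cells (the list's median log2 difference was 0.57). Ccl2 per FPKM of the marker sum was 0.385 in the 3'UTRKO library, 0.934 and 1.04 in papain cells and 0.385 and 0.683 in naive cells. In eosinophils the same quotient was 0.827 and 1.01 in the CD11c- gate and 1.23 and 1.58 in the CD11c+ gate, against 1.5 and 1.6 in naive cells. In basophils it was 1.01 and 2.17 after papain, against 5.09 and 2.00 in naive cells. The naive basophil and eosinophil quotients rest on sums of 11 FPKM or less. The Ccl2 quotient was thus higher after papain in natural helper cells without overlap, overlapped in the CD11c+ gate and in basophils, and was lower after papain in the CD11c- gate. Ccl7 gave another pattern. Ccl7 per FPKM of the marker sum was 0.203 in the 3'UTRKO library, 0.259 and 0.325 in papain natural helper cells and 0.183 and 0.307 in naive ones. It was 0.358 and 0.581 in the CD11c- gate and 0.732 and 0.810 in the CD11c+ gate, against 0.5 and 0.4 in naive eosinophils. In basophils it was 0.622 and 0.822 after papain, against 4.09 and 7.67 in naive cells. The Ccl7 quotient thus overlapped in natural helper cells and in the CD11c- gate, was higher in the CD11c+ gate and was lower in papain basophils.

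Across the 15 libraries, log2(FPKM + 1) of the fibroblast marker sum had an r of 0.95 (rho 0.91) with Ccl2 and of 0.86 (rho 0.89) with Ccl7. The other marker lists had an r of -0.31 (basophils) to 0.68 (T cells) with Ccl2. With Ccl7 their r was -0.12 (basophils) to 0.63 (T cells). For Ccl8 the r was 0.65 (rho 0.83) with fibroblast markers and 0.88 (rho 0.83) with the 9 alveolar macrophage markers. By r the alveolar macrophage list was the highest of the 12 marker lists for that gene, and by rho it was level with fibroblasts when rounded. The alveolar macrophage markers summed to 11753 and 302 FPKM in papain basophils, against 64 and 42 FPKM in naive basophils. They summed to 519 and 495 FPKM in CD11c- eosinophils and 1289 and 1468 FPKM in CD11c+ eosinophils, against 262 and 335 FPKM in naive eosinophils. In natural helper cells they summed to 118 FPKM in the 3'UTRKO library, 174 and 983 FPKM after papain and 112 and 64 FPKM when naive. Within the papain groups the order of the marker sums and that of Ccl8 were not always the same. The library with more alveolar macrophage markers had more Ccl8 in basophils (91 against 7 FPKM) and natural helper cells (8 against 1 FPKM), and less in CD11c- eosinophils (14 against 15 FPKM) and CD11c+ eosinophils (28 against 39 FPKM). Limma called 3 of the 9 higher in papain basophils, 0 in CD11c- eosinophils, 1 in CD11c+ eosinophils and 0 in natural helper cells, and their part in Ccl8 was not tested.

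**Figure D5:**
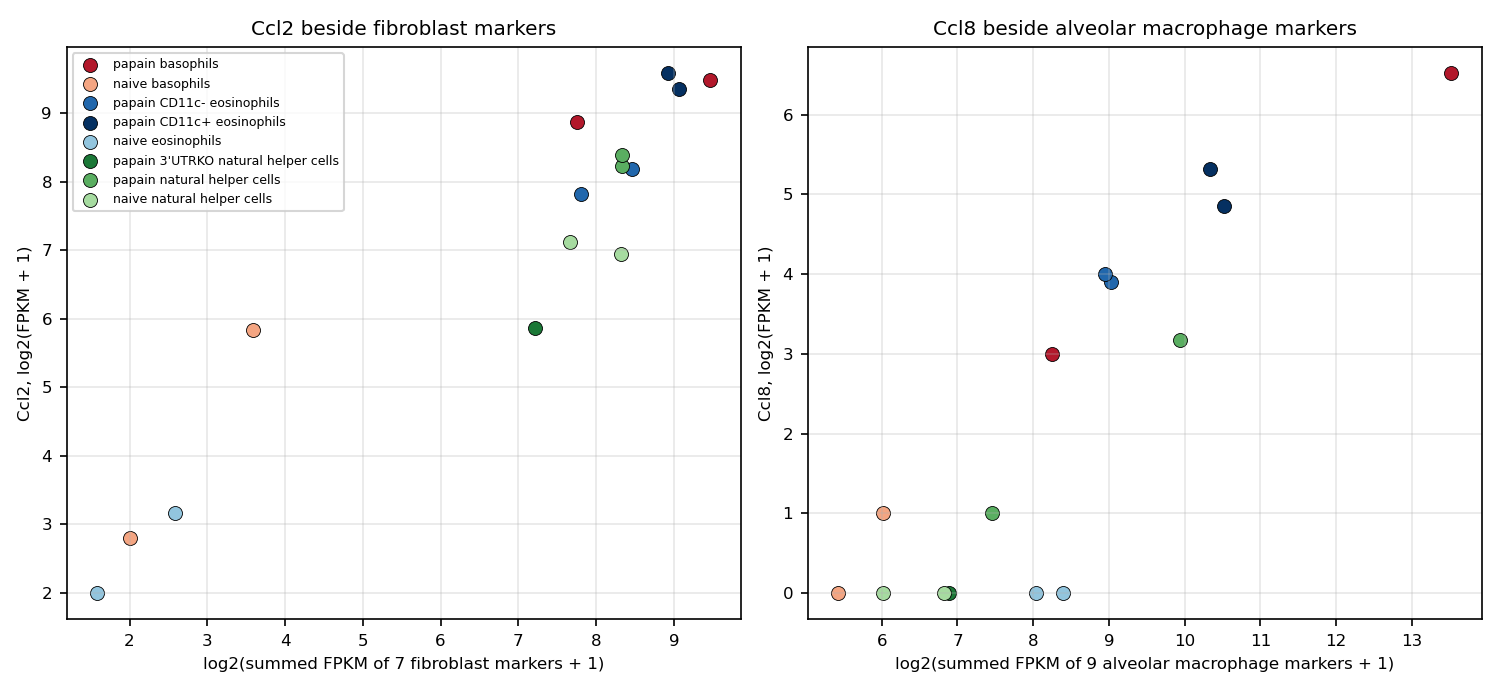
Left, Ccl2 against the summed FPKM of 7 fibroblast markers; right, Ccl8 against the summed FPKM of 9 alveolar macrophage markers, all as log2(value + 1), 1 point per library. Naive basophils and eosinophils lie at the lower left of the left panel (sums of 2 to 11 FPKM), and papain basophil library 1 lies alone at the right of the right panel (11753 FPKM).

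Among the other lists, epithelial markers summed to 20545 and 34721 FPKM in papain basophils, against 6653 and 8734 FPKM in naive basophils, with 9 of 12 called higher. In papain eosinophils they summed to 6575 to 9939 FPKM, against 713 and 1814 FPKM in naive eosinophils, with 2 of 12 (CD11c-) and 5 of 12 (CD11c+) called higher. Endothelial markers, with 6 of 8 called higher in papain basophils, summed to 114 and 349 FPKM there, against 50 and 29 FPKM in naive basophils. The 12 monocyte and macrophage markers summed to 1263 to 4955 FPKM in papain basophils, against 178 to 799 FPKM in naive basophils, with 2 called. In papain basophils limma also called 4 of 9 neutrophil markers higher, 2 of 6 B cell markers lower and 0 of 7 markers each of dendritic cells and T cells. In CD11c+ eosinophils it called 4 of 12 monocyte and macrophage, 3 of 8 endothelial, 2 of 7 T cell and 1 of 9 neutrophil markers higher and none of dendritic or B cells. In CD11c- eosinophils and in natural helper cells it called none of these 6 lists' markers. The labelled cell types themselves were marked as follows. Basophil markers summed to 702 and 2108 FPKM in papain basophils, against 6739 and 5872 FPKM in naive basophils, with 8 of 10 called lower. Elsewhere they summed to at most 760 FPKM, in naive eosinophil library 1, which is above papain basophil library 1. Whether other genes that fell in papain basophils fell with these markers was not tested. Eosinophil markers summed to 729 to 2935 FPKM in the eosinophil groups and at most 530 FPKM elsewhere, although the granule gene Epx was listed at 0 in both CD11c+ libraries. Neutrophil markers summed to 6522 to 16657 FPKM in those same eosinophil groups. Natural helper cell markers summed to 2321 to 5130 FPKM in the natural helper cell groups and at most 400 FPKM elsewhere.

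Papain basophil library 1 stood apart by its macrophage markers. Without it, the log2 difference between papain and naive basophils was 4.54 for Ccl2, 2.41 for Ccl7, 2.5 for Ccl8 and -1 for Ccl12, and 31 of the 86 list genes were called. The median of the 4 members was then 2.46.

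The genes most like each member were named by Pearson correlation of log2(FPKM + 1) over the 15 libraries, among genes that reached 20 FPKM in 2 or more libraries. For Ccl2 they were Cyr61 (r = 0.97), Adamts1, Nbl1, Errfi1 and C1s, all with r of 0.97 when rounded. Cyr61, a secreted matrix protein, had 96 and 112 FPKM in papain basophils, against 6 and 3 FPKM in naive basophils, and 141 and 106 FPKM in CD11c+ eosinophils, against 0 and 4 FPKM in naive eosinophils. For Ccl7 they were Gfpt2 (r = 0.97), Igfbp7, Xbp1, Id3 and Il1r1 (r = 0.95). For Ccl8 they were C7 (r = 0.97), Cxcl14, Mfap4, Eln and Mmp3 (r = 0.95), and Eln, the elastin gene, had 118 and 100 FPKM in CD11c+ eosinophils and was listed at 0 in naive eosinophils. Ccl12 had no gene above an r of 0.77 (Snx2), and its other nearest genes were Rap1a, Erp29, Ctss and Sec62. These correlations describe 15 libraries of 8 groups and were picked as the highest of 3907 genes (3908 for Ccl12).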

How the data were processed

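Poly(A) RNA of sorted lung cells was sequenced. Per the submitters' processing notes, TopHat 1.4.0 and Cufflinks 1.3.0 were used with build mm9. The deposited table holds 1 score per gene and library; its header names no unit, and the values were read as FPKM rounded to whole numbers by the authors. The annotation and any filter are not given in the sources used here. Commas were removed from 1008 cells, 3 cells next to 0 were set to 0, and 25 rows whose symbols had become dates were kept but not named. Of the 21110 symbols, 19085 are in the reference list of names. Read depth cannot be recovered, so no counting interval is given. No coordinates are printed because the reference is of another build.

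The 14257 genes that reached 1 FPKM in 2 or more libraries were fitted as log2(FPKM + 1), without further scaling, in limma 3.58.1 (R 4.3.3). The fit had a coefficient for each of 8 groups and used all 15 libraries, which left 7 residual degrees of freedom; the prior had 1.87. Moderated tests (eBayes, trend) were two-sided, and p-values were adjusted by Benjamini-Hochberg across every gene fitted, at a threshold of 0.05. Log2 differences understate the change of low genes. The pipeline was tested on simulated data, where false calls exceeded the share that the threshold allows. The members, the 6 pathway lists and the 12 marker lists were chosen with earlier results of these data known. The text names all members, the receptors (1 of the 8 listed is not reported here), the genes that most resemble each member, and up to 3 genes per list and direction among called genes with a group mean of 5 FPKM or more; Ccl1 and Ccl11 as cluster neighbours, and Il13ra1 in natural helper cells, were added after their values were seen. Alternatives were other pseudocounts, 2 scalings, no filter, a replicate block, the compared groups only, and each library left out in turn. Replicate numbers are shared between groups, but no label says that they mark a shared animal, day or batch, so the fit has no block. Sequences come from GENCODE vM21 transcripts and RefSeq promoters (GRCm38.p6), read with Python 3.11.15 and Biopython 1.88.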

Additional observations from a re-analysis of the deposited data

Results flagged for a closer look

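Differences between papain responses (papain minus naive in 1 cell type, less the same in another, on the log2(FPKM + 1) scale) passed limma's test for 14 results among the pathway genes named by the rule. Against natural helper cells, the response of basophils was higher for Cxcl1 (5.51), Cxcl12 (3.99), Il33 (4.01), Tnf (2.60) and Osmr (3.03). It was lower for Rel (-1.85), Nfkb1 (-1.75), Il13 (-3.79), Il6 (-2.09), Il1rl1 (-2.33) and Nfkb2 (-1.70). The limma adjusted p of these 11 lay between 0.00838 and 0.0446. With a replicate block the calls of Tnf (adjusted p = 0.0559) and Osmr (adjusted p = 0.0524) were lost. Leaving out 1 of the 8 libraries at a time, the calls of Cxcl1, Cxcl12 and Il1rl1 held throughout, that of Il33 was lost without papain natural helper cell replicate 1, that of Nfkb1 without papain natural helper cell replicate 2, and those of the other 6 were lost without 4 to 7 of the libraries. Against CD11c+ eosinophils, the response of basophils was lower for Il4 (-2.89, limma adjusted p = 0.0335), Il6 (-4.12, adjusted p = 0.00539) and Il1rl1 (-2.07, adjusted p = 0.0284). The calls of Il4 and Il1rl1 were each lost without 5 of the 8 libraries, and that of Il6 held. For Il6 the responses ran in opposite directions: it fell in the basophil libraries and rose in those of CD11c+ eosinophils. The basophil markers also fell, summing to 702 and 2108 FPKM in papain basophils, against 6739 and 5872 FPKM in naive ones. The part of a changed make-up of the libraries in these responses was not tested. Of all genes tested, 6.75% differed in response between basophils and natural helper cells and 2.52% between basophils and CD11c+ eosinophils.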

How the results depend on the processing

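Ccl2 and Ccl7 kept their sign in the papain, CD11c gate and 3'UTRKO comparisons under every alternative run, and so did Ccl8. Ccl12 in papain over naive basophils was -1 to 2.17 over left-out libraries (-0.42 without naive basophil replicate 2), and between the CD11c gates -0.50 to 1.08, with -0.21 without CD11c- replicate 1. The median of the 4 members was 5.23 and 3.16 in CD11c- eosinophils and 6.54 and 4.43 in CD11c+ eosinophils with pseudocounts of 0.5 and 5. In the 3'UTRKO comparison it was -1.15 with a pseudocount of 5 and -2.15 to -1.22 over left-out libraries.

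Fitting the compared groups only, the list genes called were 0 in basophils (against 34), 2 in natural helper cells (against 1), 3 in the 3'UTRKO comparison (against 0), 3 for basophils minus natural helper cells (against 11) and 1 for basophils minus CD11c+ eosinophils (against 3). With a pseudocount of 5 they were 4 in CD11c- eosinophils (against 8) and 0 in natural helper cells. Median-ratio scaling, quantile normalization and the replicate block each gave 0 in natural helper cells. With the replicate block 29 were called in basophils, 7 in CD11c- and 19 in CD11c+ eosinophils. The deviations of same-numbered libraries had correlations of -0.13 to 0.12 over comparisons. With the numbers crossed, a setting chosen after seeing the data, naive basophils over naive eosinophils gave 16 list genes (against 14 with the replicate block as labelled and 18 without).

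Over left-out libraries the calls were 15 to 31 in basophils (lowest without naive basophil replicate 2), 1 to 5 in CD11c- and 7 to 17 in CD11c+ eosinophils (lowest without naive eosinophil replicate 1), and 0 in natural helper cells (0 to 0). They were 5 to 12 in naive basophils over naive eosinophils, 30 to 34 in naive eosinophils over naive natural helper cells, 4 to 17 for basophils minus natural helper cells and 1 to 8 for basophils minus CD11c+ eosinophils (both highest without papain basophil replicate 1). Ccr2 in basophils was 1.56 without papain basophil replicate 2 (adjusted p = 0.0168, limma), over a range of -1.84 to 1.56.

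Of all genes called, the higher share was 85.1% in basophils (65.5% median-ratio, 45.4% quantile), 83.4% in CD11c- eosinophils (72.9% and 73.5%), 81.8% in CD11c+ eosinophils (56.7% and 51.2%), 68.8% in natural helper cells (38.5% and 53.6%), 50% between the gates (100% and 100%) and 37.0% for 3'UTRKO (48.1% and 46%). The counts behind them ranged over alternatives from 490 to 3758 in basophils (main 3705), 44 to 1114 in CD11c- eosinophils (320), 371 to 2070 in CD11c+ eosinophils (1730), 52 to 542 in natural helper cells (112), 1 to 498 between the gates (8) and 25 to 2308 for 3'UTRKO (81). For naive cells they ranged from 929 to 2166 (1990, basophils over eosinophils), 1363 to 3033 (2935) and 2419 to 4470 (4007) over natural helper cells, and for differing responses from 288 to 1691 (963) and 15 to 1013 (359). Of 2319 alternative values for named genes that are no members, 277 lost the call, 16 gained it and 1 reversed. The causes were not tested. Whole-number FPKM limits what can be said of values under about 5 FPKM, most of those of Ccl12 and of Ccl8 in natural helper cells among them.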
